A study of Mus musculus with 20 samples.

Results

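The kidney's proximal tubule reclaims most of the glucose, amino acids, phosphate, bicarbonate and organic acids that pass the glomerular filter. It does so through solute carriers, membrane proteins of which apical members take solutes up from the tubule lumen and basolateral members pass them on to the blood, while other carriers secrete organic anions, cations and drugs in the opposite direction. Most uptake is coupled to the sodium gradient, and the set of carriers changes along the tubule from its early convoluted segments to its late straight segment. This report describes the RNA of 42 such carriers in whole mouse kidneys. They were taken by name from the 55471 gene identifiers of the count table, and all 42 were found. The rule itself used names and no measured value, but the carriers were chosen with earlier results of these data known. They were sorted by substrate into 5 sodium-glucose and monocarboxylate cotransporters, 3 facilitative sugar and urate carriers, 13 organic anion and cation carriers, 12 amino acid and peptide carriers, and 9 carriers of ions, sulfate, dicarboxylates and ascorbate.

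The study followed how the kidney recovers from injury of podocytes, the glomerular filter cells, and the part of TERT, the protein subunit of telomerase, in that recovery. All 20 mice were female and 2 months old per their labels, and each gave 1 library. In the i-TERTci experiment, on a mixed background, 4 actin-rtTA+ control mice and 3 i-TERTci mice (genotype actin-rtTA+;tetOp-TERTci+) received doxycycline at 2 mg/ml for 15 days, and kidneys were taken after 8 days without it (R8). The i-TERTci mice carry a doxycycline-driven, ubiquitously expressed, catalytically inactive TERT (TERTci), and both groups carry the actin-rtTA+ transgene. The ADR experiment used Balb/c mice that were wild-type (TERT WT/WT, here WT) or knockout (TERT KO/KO, here KO) for the gene. They received saline or, in 1 intravenous dose of 12 mg/kg, Adriamycin (ADR), a podocyte toxin also called doxorubicin, and kidneys were taken 18 days later, giving 4 WT saline, 3 WT ADR, 3 KO saline and 3 KO ADR libraries. The knockout is constitutive, not limited to the tubule, and had been backcrossed for 10 generations.

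Libraries held 39323498 to 48399322 counts. Tert, the gene altered in both models, had 122 to 187 counts in WT saline, 51 to 132 in KO saline, 87 to 164 in actin-rtTA+ and 230 to 1086 in i-TERTci libraries, and after ADR 164 to 379 in WT and 105 to 210 in KO; the deleted part is not given in the sources used here, so these whole-gene counts do not check the knockout. Replicate 2 labelled KO ADR differed from every other library. Its 10 hepatocyte markers summed to 302507 CPM (counts scaled to a common library total), 261234 of them from the albumin gene Alb, against at most 257 in any other library, while the podocyte gene Nphs1 and the proximal tubule receptor gene Lrp2 stood at 0.042 and 4.81 CPM. It had no Tert count. Because earlier results of these data had shown it to be liver-like, it was left out of the group values and fits below. KO ADR thus has 2 libraries there. In the library left out, 35 of the 42 carriers were below all the other 12 libraries of the ADR experiment. With it kept, no carrier was called as changed by ADR in either genotype, beside 4.82% (WT) and 1.59% (KO) of all genes. Markers of proximal tubule cells that are not carriers, such as Lrp2, were abundant in the other 19 libraries, from 6368 to 48006 CPM summed over 22 genes. KO ADR replicate 2, at 10608 CPM, was within that range, so this sum does not set it apart.

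In control kidneys the carriers together took 1.04% to 1.38% of all counts. Levels between genes were compared per kilobase of exon (RPKM). In WT saline mice the highest mean was that of Slc22a12, the apical urate-anion exchanger, at 329 ± 55.6 RPKM (SD, n = 4). Slc22a8, a basolateral organic anion transporter, followed at 290.5 ± 13.9 RPKM, and Slc3a1, the heavy chain of the cystine transporter, at 281 ± 16.4 RPKM; the SDs of these 3 overlap, so their order is not set apart from the spread. Of the glucose cotransporters, Slc5a2, which does most of the early glucose uptake, stood at 163 ± 12.4 RPKM and Slc5a1, its late-segment counterpart, at 18.2 ± 1.93 RPKM. The lowest were Slco4c1 (0.920 ± 0.169 RPKM), Slc7a13 (0.309 ± 0.138 RPKM) and Slco1a1, which had no count in any of the 4 libraries. The actin-rtTA+ controls also had Slc22a12, Slc22a8 and Slc3a1 as their top 3, at 393 ± 57.7, 351 ± 5.66 and 293 ± 12.8 RPKM, and the last of these is within the spread of the next, Slc22a18 at 288 ± 53.2 RPKM.

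**Figure D1:**
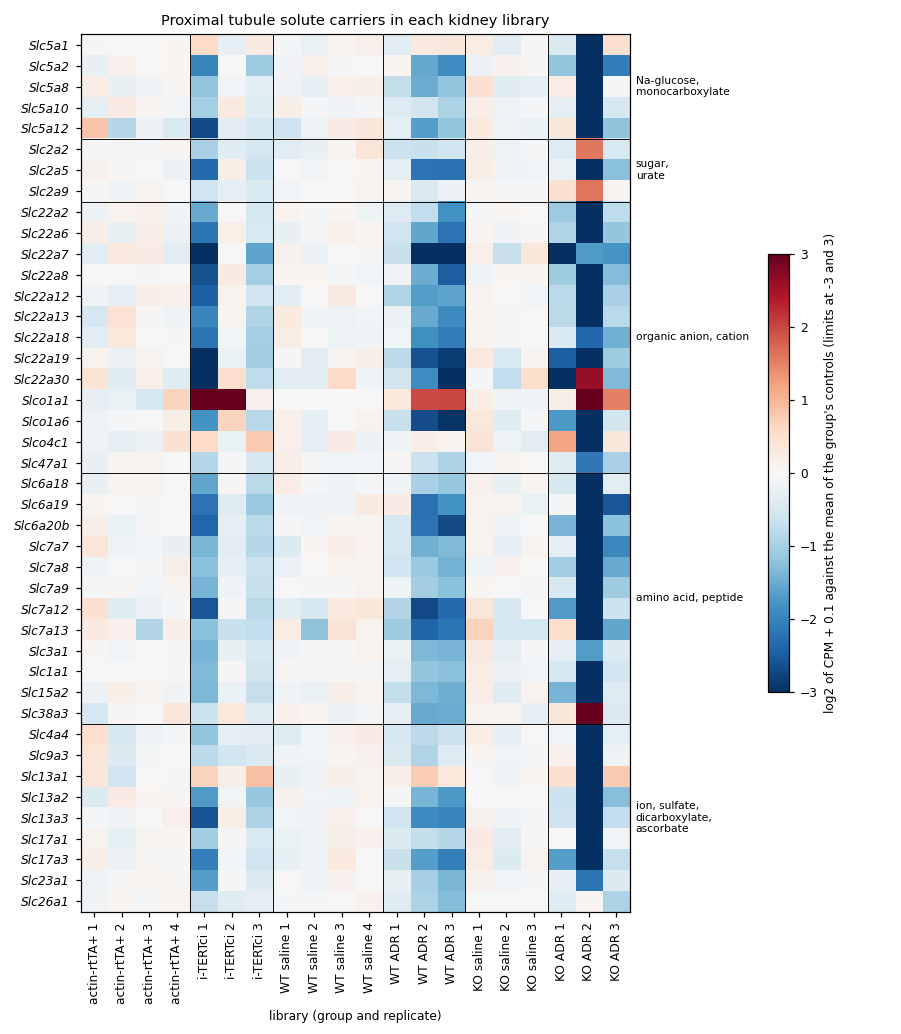
Each cell is the log2 ratio of a carrier's CPM, with 0.1 added, in 1 library to the mean of the control group of the same experiment and genotype (rows, 42 carriers by substrate group; columns, 20 libraries; colours end at -3 and 3). Blue runs through most rows of i-TERTci 1 and 3, WT ADR 2 and 3 and, more weakly, WT ADR 1 and KO ADR 1 and 3; i-TERTci 2 is close to white, and KO ADR 2 is the library left out.

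Most carriers were lower 18 days after ADR in WT mice, across sugars, amino acids, organic ions and dicarboxylates. The urate exchanger Slc22a12 was 2.55-fold, the dicarboxylate carrier Slc13a3 2.52-fold, the organic anion exchanger Slc22a6 2.49-fold and the neutral amino acid exchanger Slc7a8 2.02-fold lower, all called. The apical sulfate carrier Slc13a1 and the late glucose cotransporter Slc5a1 were not lower. Of the 42 carriers, 28 fell and 1 rose at an adjusted p under 0.05 (edgeR quasi-likelihood test, Benjamini-Hochberg over 19023 genes), and 13 did not pass. Over all genes tested 27.1% were called, 12.0% as lower and 15.2% as higher. An unadjusted p under 0.05 was found for 37 carriers and 40.9% of all genes. DESeq2 called 33 carriers as lower and 2 as higher, beside 17.4% of all genes. The median log2 fold change of the carriers was -0.90, beside 0.01 over all genes. In 29 carriers every ADR library lay below every saline library, which held for 15.3% of all 19783 genes expressed in the libraries of both experiments, and for 12 carriers the groups overlapped. The count of called carriers rested on single libraries: it was 5 without ADR replicate 2 (9.06% of all genes), 14 without ADR replicate 3 (15.0%), 19 without saline replicate 3 (16.3%), 18 without saline replicate 4 (16.1%) and 39 without ADR replicate 1 (41.2%). The median stayed between -1.38 and -0.68. The 3 ADR mice were unequal: the median carrier stood at 76.9% of the saline mean in replicate 1, at 37.7% in replicate 2 and at 36.8% in replicate 3. Below all 4 saline libraries were 30, 38 and 38 carriers in replicates 1, 2 and 3, beside 29.1%, 36.0% and 34.3% of all genes. In whole-kidney RNA, fewer proximal tubule cells and less carrier RNA per cell cannot be told apart.

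Among the organic anion and cation carriers, 6 of 13 fell and 1 rose, beside 12.0% of all genes called as lower and 15.2% as higher. Slc22a12 (chr19:6535845-6543032, mm10, as are the gene positions below), which takes urate back from the lumen, had 590.0, 744, 898 and 743 CPM in the saline and 395, 234 and 249 CPM in the ADR libraries. All ADR libraries were below all saline libraries, and it had the smallest p of all members (log2 fold change -1.35 ± 0.20 SE, adjusted p = 0.0015). Slc22a6 (chr19:8618039-8628299), the basolateral exchanger that loads the cell with organic anions for secretion, had 591, 673, 759.8 and 716 CPM with saline and 451, 233 and 148 CPM with ADR (log2 fold change -1.31 ± 0.29 SE, adjusted p = 0.0076). The groups did not overlap, and replicate 1 was the highest ADR library. The neighbouring Slc22a8, with the same kind of substrates, went from 1181, 1178, 1116 and 1068 to 1053, 406 and 206 CPM, and did not pass (log2 fold change -1.04 ± 0.39 SE, adjusted p = 0.065), although again no ADR library reached the saline range. The basolateral cation transporter Slc22a2 fell (log2 fold change -0.87 ± 0.25 SE, adjusted p = 0.023), whereas Slc47a1, the apical cation exchanger that completes cation secretion, gave a log2 fold change of -0.46 that did not pass (adjusted p = 0.12). Slc22a19 and Slco1a6 had log2 fold changes of -1.77 and -1.74, and Slc22a13 one of -0.999, all called. The liver and kidney anion carrier Slc22a7 had 169, 33.6 and 16.9 CPM after ADR against 295, 241, 271 and 276 CPM, all lower, and did not pass (adjusted p = 0.066). Slc22a19 and Slc22a30, and Slco1a1 and Slco1a6, are members of families with close relatives, and their counts may share reads.

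Slco1a1 (chr6:141907282-141946962), an organic anion transporting polypeptide, was the 1 carrier called as higher. It had no count in the 4 saline libraries and 1, 13 and 18 counts in the ADR libraries. Against a floor of 3 counts per saline library, its ADR mean of 0.206 CPM was at least 3.01-fold higher. ADR replicate 1, with 1 count, was itself under that floor. In the other experiment Slco1a1 had 1, 1, 0 and 6 counts in actin-rtTA+ and 123, 48 and 3 in i-TERTci libraries, and it did not pass the count filter there.

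Of the 12 amino acid and peptide carriers, 11 fell with ADR, beside 12.0% of all genes, and Slc6a19 did not pass. Slc7a8 (chr14:54722209-54781946), the basolateral exchanger of neutral amino acids, had 320.1, 366, 397 and 397 CPM with saline and 243, 171 and 139 CPM with ADR (log2 fold change -1.01 ± 0.19 SE, adjusted p = 0.0037). Slc15a2, which takes up di- and tripeptides in the late segments, had 119.9, 116, 152 and 139.8 CPM and 80.9, 52.0 and 47.5 CPM in the same order (log2 fold change -1.14 ± 0.25 SE, adjusted p = 0.0079). Slc1a1, the acidic amino acid transporter, had 240.3, 230.1, 244 and 231 CPM and 192, 106 and 99.8 CPM (log2 fold change -0.84 ± 0.20 SE, adjusted p = 0.011). In these 3 genes the groups did not overlap, and ADR replicate 1 was nearest to the controls. Both chains of the cystine transporter fell, the heavy chain Slc3a1 by 0.88 and the light chain Slc7a9 by 0.74 on the log2 scale. Slc7a7, which releases cationic amino acids to the blood, fell by 1.03. The largest fitted changes were those of Slc7a13 (-2.44, at under 1 CPM in every WT library), Slc7a12 (-1.76) and Slc6a20b (-1.51). Slc6a19, the main apical carrier of neutral amino acids, split the ADR mice: replicate 1, at 319 CPM, was within the saline range, and replicates 2 and 3 were at 57.0 and 77.4 CPM against 252, 251, 250.2 and 328 CPM (log2 fold change -0.85 ± 0.59 SE, adjusted p = 0.3).

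Of the sodium-glucose and monocarboxylate cotransporters, 2 of 5 fell, beside 12.0% of all genes. Slc5a8 (chr10:88885992-88929515), which takes up lactate and other monocarboxylates, had 68.7, 61.6, 81.5 and 82.5 CPM with saline and 44.6, 26.3 and 32.6 CPM with ADR (log2 fold change -1.10 ± 0.22 SE, adjusted p = 0.0052). Slc5a10, a mannose and fructose cotransporter, had 367, 313, 301 and 315 CPM and 248, 219.7 and 167 CPM (log2 fold change -0.62 ± 0.15 SE, adjusted p = 0.012). No ADR library reached the saline range in either gene. Slc5a12, another monocarboxylate carrier, had 261, 101 and 139 CPM after ADR against 204, 281, 375 and 396 CPM and did not pass (adjusted p = 0.099). Slc5a2 stood at 493, 163 and 130.0 CPM against 437, 523, 465 and 469 CPM, with replicate 1 inside the saline range (log2 fold change -0.86 ± 0.38 SE, adjusted p = 0.11). Slc5a1 gave no decrease, at 60.1, 91.5 and 94.6 CPM against 71.8, 64.8, 78.8 and 82.7 CPM (log2 fold change 0.14, 95% interval -0.34 to 0.61).

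The basolateral glucose carrier Slc2a2 (chr3:28697903-28731359) fell from 126, 133, 165 and 200.2 CPM to 99.3, 98.8 and 104 CPM (log2 fold change -0.64 ± 0.16 SE, adjusted p = 0.012), and unlike most carriers its 3 ADR libraries were close to each other. The fructose carrier Slc2a5 went from 127, 119, 125 and 129.6 to 104, 27.0 and 26.2 CPM (log2 fold change -1.26 ± 0.43 SE, adjusted p = 0.047). The urate carrier Slc2a9, at 20.2, 14.1 and 16.9 CPM against 17.8, 18.9, 19.1 and 20.1 CPM, did not pass (adjusted p = 0.38).

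Of the carriers of ions, sulfate, dicarboxylates and ascorbate, 7 of 9 fell, beside 12.0% of all genes. Slc13a3 (chr2:165405028-165473230), the basolateral dicarboxylate carrier whose gradient drives organic anion uptake, had 1026, 1016, 1219 and 1097 CPM with saline and 737, 289 and 279.7 CPM with ADR (log2 fold change -1.33 ± 0.29 SE, adjusted p = 0.0077). Slc17a3, an organic anion and urate efflux carrier, had 278, 295, 396 and 326 CPM and 202, 103 and 78.1 CPM (log2 fold change -1.35 ± 0.32 SE, adjusted p = 0.011). Slc26a1, the basolateral sulfate exchanger, had 364, 358, 370.5 and 409 CPM and 289, 194 and 153 CPM (log2 fold change -0.83 ± 0.20 SE, adjusted p = 0.01). The groups did not overlap in these 3 genes. The sodium-proton exchanger Slc9a3, the sodium-bicarbonate cotransporter Slc4a4 and the ascorbate carrier Slc23a1 fell by 0.56, 0.64 and 0.79. The apical sulfate carrier Slc13a1 (chr6:24088283-24168092) had the opposite sign and did not pass, at 365, 545 and 408 CPM against 281, 300.4, 369.7 and 349.9 CPM (log2 fold change 0.43 ± 0.16 SE, adjusted p = 0.069).

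By position, 5 of 8 carriers typical of the early and 5 of 7 typical of the late proximal tubule fell, with medians of -0.86 and -1.10. Beside these counts, 12.0% of all genes were called as lower.

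**Figure D2:**
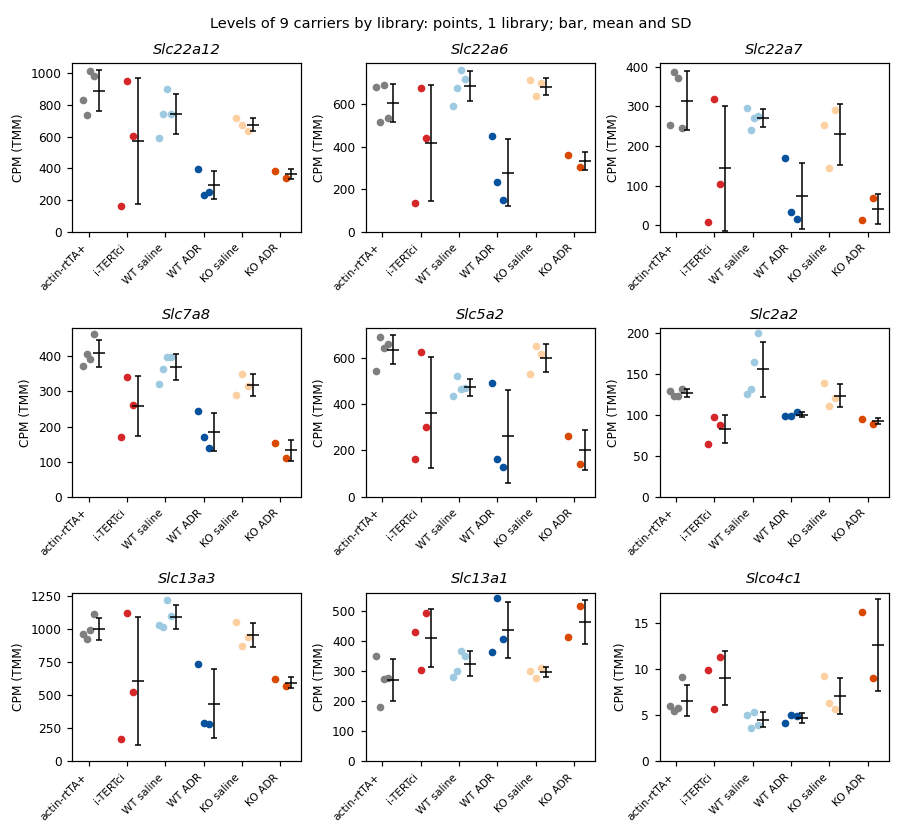
TMM-normalized CPM of 9 carriers (vertical axes, linear, each with its own range) in the 6 groups; points are libraries, and the black mark is the mean with its SD, with KO ADR replicate 2 left out. Slc22a12, Slc22a6 and Slc7a8 have no ADR library within the range of their own saline group in either genotype, Slc13a1 and Slco4c1 do not go down, and in the 5 carriers Slc22a12, Slc22a6, Slc22a7, Slc5a2 and Slc13a3 the i-TERTci points run from the control range or above it to far below.

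The promoters of the carriers were searched for a short element bound by HNF4, a nuclear receptor known to drive proximal tubule genes. RefSeq promoters of build GRCm38.p6 were matched for 32 of the 42 carriers, and the 250 bases before each start were read on both strands. The element CAAAGTCCA (or its reverse complement TGGACTTTG) was present in Slc3a1, 1 of the 32 genes, beside 0.451% of all 27025 genes in the table. This window is shown because it holds the match upstream of a carrier whose level was lower in every ADR library of WT mice; capitals mark the match, and it is written along the gene's strand.
Slc3a1, chr17:85028097-85028346, plus strand: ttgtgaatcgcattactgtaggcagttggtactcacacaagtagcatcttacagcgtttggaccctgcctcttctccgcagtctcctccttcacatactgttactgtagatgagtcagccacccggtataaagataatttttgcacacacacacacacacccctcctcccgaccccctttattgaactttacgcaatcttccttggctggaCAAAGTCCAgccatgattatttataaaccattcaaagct
The match begins 39 bases before the start. It is a description of the letters, and binding was not measured. Hnf4a, which encodes an HNF4 factor, fell after ADR in WT mice (log2 fold change -1.03 ± 0.25 SE, adjusted p = 0.011), as did Ppara, which encodes a lipid sensor (log2 fold change -0.85, adjusted p = 0.0495).

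In i-TERTci mice at R8 most carriers had negative fold changes, no carrier passed, and the 3 mice were far apart. The amino acid carrier Slc6a19 was fitted 2.04-fold and the glucose carrier Slc2a2 1.51-fold lower than in actin-rtTA+ mice, neither called. None of the 41 carriers that passed the count filter was called by edgeR, and 12 had an unadjusted p under 0.05. Over all genes the test called 0.00564% (1 of 17745), and 22.4% had an unadjusted p under 0.05. The carriers had negative fold changes in 38 of 41 cases, with a median of -0.60 beside 0.02 over all genes. In replicate 1 the median carrier stood at 36.5% of the actin-rtTA+ mean and 38 of 42 carriers were below all 4 control libraries, against 32.3% of all genes. In replicate 3 it stood at 66.9%, with 34 carriers below all controls against 25.8% of all genes. Replicate 2 stood at 95.0%, with 13 carriers below all controls against 19.2% of all genes. Without replicate 2, the same test called 22 carriers as lower and 2 as higher (Slc13a1 and Slc5a1), with a median of -1.04, beside 23.6% of all genes (8.43% lower and 15.1% higher); 1 library thus decides whether carriers are called. DESeq2 called Slc2a2, Slc2a9, Slc6a19, Slc7a7 and Slc9a3 as lower and Slco1a1 as higher, beside 6.59% of all genes, and a fit with the libraries of both experiments called Slc2a2, Slc2a9, Slc9a3 and Slco1a1, beside 10.9%.

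The smallest p among the carriers was that of the glucose carrier Slc2a2, with 129, 123, 123 and 132 CPM in actin-rtTA+ and 64.3, 97.9 and 87.5 CPM in i-TERTci libraries (log2 fold change -0.59 ± 0.15 SE, adjusted p = 0.088). The urate carrier Slc2a9 had 18.0, 15.9, 18.5 and 17.3 CPM and 11.5, 14.5 and 12.8 CPM (log2 fold change -0.42 ± 0.13 SE, adjusted p = 0.11). The sodium-proton exchanger Slc9a3 had 155, 91.2, 115 and 120.2 CPM and 69.8, 80.6 and 88.7 CPM (log2 fold change -0.58 ± 0.19 SE, adjusted p = 0.13). In these 3 genes every i-TERTci library, replicate 2 included, was below every control. That held for 12 carriers, against 7.89% of all genes. Among the amino acid carriers, Slc6a19 had 329, 312, 306 and 311 CPM and 67.1, 245 and 146 CPM (log2 fold change -1.03 ± 0.37 SE, adjusted p = 0.15), and Slc7a7 had 389, 276, 289 and 261 CPM and 118, 245 and 168 CPM (log2 fold change -0.77 ± 0.26 SE, adjusted p = 0.14). Both were without overlap. Slc7a8 (log2 fold change -0.65 ± 0.24 SE, adjusted p = 0.16), Slc26a1 (log2 fold change -0.41 ± 0.15 SE, adjusted p = 0.17) and the fructose carrier Slc2a5 (log2 fold change -0.60 ± 0.46 SE, adjusted p = 0.48) also had negative fold changes, and Slc2a5 overlapped with its controls.

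Other carriers spread widely among the 3 i-TERTci mice. Slc5a2 had 162, 629 and 302 CPM in i-TERTci and 546, 693, 645 and 660.2 CPM in actin-rtTA+ libraries (log2 fold change -0.79 ± 0.40 SE, adjusted p = 0.28). Slc22a18, a putative organic cation carrier, had 109, 460.3 and 242 CPM and 391, 609.6, 484 and 470.3 CPM in the same order (log2 fold change -0.84 ± 0.42 SE, adjusted p = 0.28). Slc22a2 had 120.1, 341 and 236 CPM against 301, 366, 383 and 320.0 CPM (log2 fold change -0.55 ± 0.31 SE, adjusted p = 0.33), and Slc47a1 had 220.0, 388 and 283 CPM against 338, 418, 429 and 397 CPM (log2 fold change -0.40 ± 0.21 SE, adjusted p = 0.3). In each of these, replicate 2 was within the control range, replicate 1 was the lowest and replicate 3 lay between. Slc22a7 had the lowest ratio to its controls of any carrier in replicates 1 and 3, with 7.24, 317 and 105 CPM against 253, 386, 371 and 246 CPM. The monocarboxylate carriers Slc5a8 (log2 fold change -0.44 ± 0.25 SE, adjusted p = 0.32) and Slc5a12 (log2 fold change -0.86 ± 0.58 SE, adjusted p = 0.41) did not pass. The actin-rtTA+ libraries themselves were uneven for Slc5a12, at 568, 173, 277 and 227 CPM.

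The 3 carriers with positive fold changes were Slc13a1, Slc5a1 and Slco4c1. The sulfate carrier Slc13a1 had 431, 305 and 495 CPM against 351, 181, 274 and 279 CPM (log2 fold change 0.61 ± 0.26 SE, adjusted p = 0.21), with replicate 2 inside the control range. Slc5a1 had 120.3, 68.5 and 95.6 CPM against 78.6, 79.9, 81.4 and 84.1 CPM, and replicates 1 and 3 were above all controls. Slco4c1, a transporter of organic anions and of cardiac glycosides, had 9.96, 5.73 and 11.4 CPM against 6.04, 5.44, 5.79 and 9.10 CPM.

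**Figure D3:**
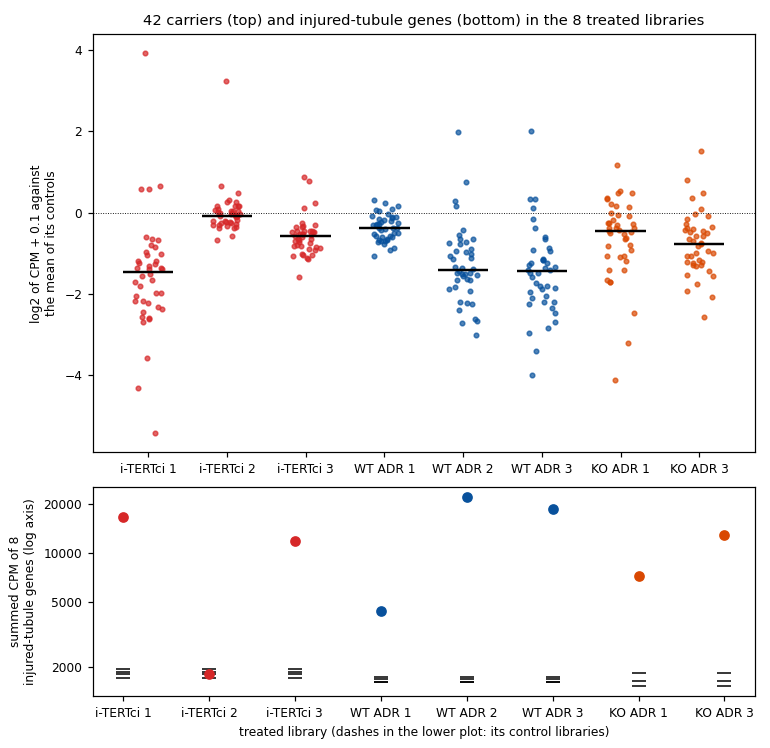
Top, log2 ratio of CPM with 0.1 added to the mean of its controls for each of the 42 carriers (points) and their median (line) in the 8 treated libraries that were kept; bottom, summed CPM of 8 injured-tubule genes in the same libraries (points) and their controls (dashes) on a log axis. i-TERTci 2 lies at its controls in both plots, and i-TERTci 1, WT ADR 2 and WT ADR 3 have the lowest medians and summed injury levels from 16604 to 22112 CPM.

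The carrier levels were set beside markers of other states and cells in the same libraries. Of 8 genes known to rise in injured tubule cells, such as Lcn2, Spp1 and Krt20, 7 rose after ADR in WT and 4 in KO mice. In i-TERTci mice none passed, while all 8 had an unadjusted p under 0.05. Among all genes tested, 15.2% were called as higher after ADR in WT mice, which also stands beside the leukocyte and fibroblast counts below. In KO mice 5.26% of all genes were called in either direction. In i-TERTci mice 22.4% of all genes had an unadjusted p under 0.05. The injury sum was 16604, 1823 and 11904 CPM in i-TERTci replicates 1, 2 and 3, against 1735 to 1954 CPM in actin-rtTA+ libraries. It was 4426, 22112 and 18636 CPM in the WT ADR libraries, against 1621 to 1757 CPM with saline, and 7274 and 12867 CPM in the KO ADR libraries, against 1531 to 1842 CPM. The i-TERTci library with carriers at control levels and the WT ADR library with the mildest carrier decrease thus had the lowest injury sums of their groups, and this relation was not tested. Of 7 leukocyte genes 4 rose after ADR in WT mice, with sums of 228 to 369 CPM against 132 to 175 CPM, and i-TERTci replicates 1, 2 and 3 summed to 976, 151 and 485 CPM against 105 to 158 CPM. Of 6 fibroblast genes 4 rose and 1 fell after ADR in WT mice, with sums of 545 to 1161 CPM against 263 to 288 CPM. Of 6 podocyte genes 5 fell in these mice, with sums of 152 to 467 CPM against 590.4 to 660.5 CPM, and i-TERTci replicates 1, 2 and 3 summed to 242, 1095 and 518 CPM against 552 to 692 CPM. After ADR in WT mice, genes of other tubule segments fell too, 3 of 6 in the thick ascending limb and 2 of 4 in the distal convoluted tubule. In intercalated cells 3 of 5 fell and in principal cells 0 of 6, and none of these 21 genes rose. Over all genes 12.0% were called as lower. The thick ascending limb sum was not lower, at 3937 to 5810 CPM against 3588 to 5779 CPM with saline. The sums were 616 to 1135 against 1253 to 1440 CPM in the distal convoluted tubule and 234 to 322 against 347 to 368 CPM in intercalated cells. In principal cells they were 861 to 1538 against 1055 to 1411 CPM. Of 5 endothelial genes 3 fell. The part of these cells in the carrier differences was not tested.

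In KO mice, the neutral amino acid exchanger Slc7a8 was 2.40-fold lower after ADR and was the only carrier called by edgeR. The fitted fold changes of Slc22a6 and Slc22a12, which did not pass, were -1.03 and -0.88 on the log2 scale. Of the 42 carriers, 1 fell with ADR and none rose by edgeR, over 2 ADR libraries against 3 saline libraries, while 20 had an unadjusted p under 0.05. Over all genes 5.26% were called, a larger share than among the carriers, and 24.1% had an unadjusted p under 0.05. The median log2 fold change of the carriers was -0.66 beside 0.01 over all genes. Slc7a8 had 289.7, 351 and 316 CPM with saline and 154 and 111 CPM with ADR (log2 fold change -1.26 ± 0.23 SE, adjusted p = 0.011). Slc22a12 had 716, 669.9 and 636 CPM and 386 and 342 CPM and just missed the threshold (log2 fold change -0.88 ± 0.24 SE, adjusted p = 0.051). Slc5a2 had 531, 651 and 616 CPM and 262 and 142 CPM (log2 fold change -1.56 ± 0.47 SE, adjusted p = 0.072), and Slc22a6 had 713, 635 and 696 CPM and 362 and 304 CPM (log2 fold change -1.03 ± 0.34 SE, adjusted p = 0.094). In all 4 genes both ADR libraries were below all saline libraries. That held for 28 carriers, against 20.6% of all genes. Replicate 1 had 29 carriers and replicate 3 had 35 below all saline libraries, against 32.7% and 35.7% of all genes, with the median carrier at 73.4% and 59.1% of the saline mean. The largest fitted decrease was that of Slc22a7, with 13.2 and 67.4 CPM against 253, 144 and 291 CPM (log2 fold change -2.50 ± 0.88 SE, adjusted p = 0.11). Slc13a1 had 414 and 517 CPM against 302, 279 and 312 CPM (log2 fold change 0.65 ± 0.19 SE, adjusted p = 0.07), above all controls, as was Slc2a9 at 23.0 and 17.7 CPM against 17.4, 16.0 and 16.2 CPM (log2 fold change 0.30 ± 0.15 SE, adjusted p = 0.25). Without KO ADR replicate 3 no carrier was called (1.52% of all genes), and without replicate 1 there were 2 (5.57%). DESeq2 called 8 carriers as lower and 2 as higher (Slco4c1 and Slc13a1), beside 6.48% of all genes, and a fit of the KO groups alone called 11 as lower and Slc13a1 as higher, beside 9.53%.

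**Figure D4:**
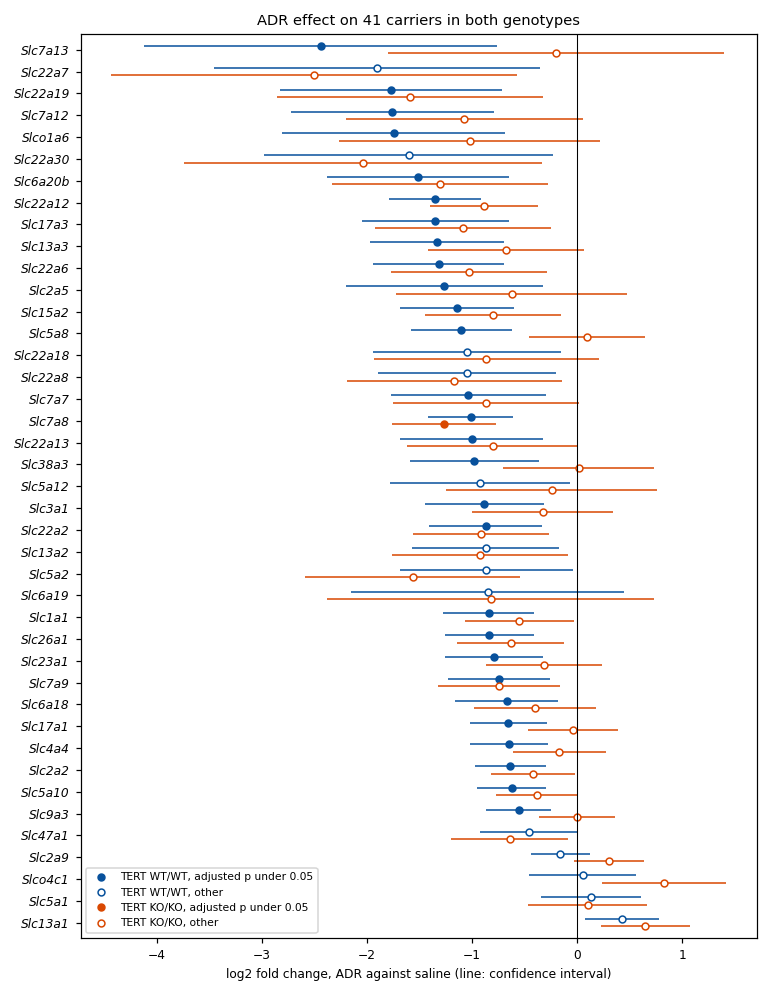
Fitted log2 fold change of ADR against saline with its 95% interval for 41 carriers in WT (blue) and KO mice (orange), ordered by the WT value; filled points have an adjusted p under 0.05. Slco1a1 is not drawn because it has no count in WT saline. Most points of both genotypes lie left of 0, the KO intervals are wide, and Slc5a8, Slc38a3 and Slc9a3 lie near 0 in KO mice.

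The difference between the ADR effects was tested itself, as an interaction, and no carrier passed, with 5 of 42 at an unadjusted p under 0.05; over all genes 0% passed and 12.0% had an unadjusted p under 0.05, so the carriers' share is near that of all genes. Slc5a8 had the smallest p. Its ADR effect was -1.10 in WT and 0.09 in KO mice, where it had 83.1, 47.3 and 51.4 CPM with saline and 70.3 and 58.8 CPM with ADR (difference on the log2 scale 1.19 ± 0.33 SE, adjusted p = 0.29). The others were Slc9a3, Slc17a1, Slc38a3 and Slc2a9. The median difference over the 42 carriers was 0.25, beside -0.01 over all genes. Without WT ADR replicate 1, whose carriers were nearest to the saline levels, 8 carriers passed (Slc13a3, Slc2a5, Slco1a6, Slc38a3, Slc6a20b, Slc5a8, Slc3a1 and Slc23a1), all positive, beside 1.71% of all genes. DESeq2 on all 12 libraries called none of the carriers and 0.395% of all genes.

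Between genotypes, no carrier differed with saline (edgeR; Slco4c1, Slc9a3 and Slc2a2 at an unadjusted p under 0.05; 0.00526% of all genes called, and 8.79% at an unadjusted p under 0.05). The median carrier difference was -0.13 with saline. After ADR none passed either (5 at an unadjusted p under 0.05; 0.0736% of all genes called, 7.66% at an unadjusted p under 0.05), with a median of 0.20. The smallest p after ADR was that of Slco4c1, with 16.2 and 9.09 CPM in KO and 4.14, 5.08 and 4.90 CPM in WT mice (log2 fold change 1.43 ± 0.27 SE, adjusted p = 0.12). With saline it had 9.31, 6.38 and 5.63 CPM and 5.06, 3.67, 5.38 and 3.97 CPM (log2 fold change 0.65 ± 0.23 SE, adjusted p = 0.56), again without overlap. DESeq2 called Slco4c1 after ADR (log2 fold change 1.42, adjusted p = 0.0010; 0.383% of all genes) and no carrier with saline (0.0634%). Without WT ADR replicate 1, 14 carriers were higher in KO mice after ADR, beside 4.12% of all genes called in either direction, so this comparison rests on that library.

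On chromosome 13, 3 carriers lie within 1 Mb of Tert (chr13:73626911-73649843, mm10). Slc6a18 (chr13:73661752-73678023) lies 11.9 kb from it, Slc6a19 (chr13:73679745-73704865) 29.9 kb and Slc9a3 (chr13:74121457-74169442) 472 kb. Slc9a3 had 134, 119 and 123 CPM in KO and 148, 153, 173 and 178 CPM in WT mice with saline, without overlap (log2 fold change -0.38 ± 0.14 SE, adjusted p = 0.56). The lack of overlap was not particular to it. Slc2a9, Slc22a2 and Slc26a1, on other chromosomes, were also below all WT saline libraries, and Slc5a2, Slco4c1 and Slc13a2 were above them. Slc6a18 (log2 fold change -0.04 ± 0.22 SE, adjusted p = 0.96) and Slc6a19 (log2 fold change 0.25 ± 0.58 SE, adjusted p = 0.9) gave small differences that did not pass.

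The i-TERTci effect minus the ADR effect in WT mice, fitted on 19 libraries, passed for no carrier, and none had an unadjusted p under 0.05, against 0.00505% and 7.16% of all genes. The median difference was 0.31. The intervals were wide: that of Slc22a12 ran from -0.38 to 1.80, and that of Slc2a2 from -0.43 to 0.48. The control groups of the experiments, actin-rtTA+ and WT saline, differed in no carrier by edgeR or DESeq2, with 4 at an unadjusted p under 0.05, beside 6.78% of all genes called and 18.8% at an unadjusted p under 0.05. Slc9a3 and Slc15a2 had the smallest p values (log2 fold change -0.44 ± 0.15 SE, adjusted p = 0.1 and log2 fold change 0.63 ± 0.24 SE, adjusted p = 0.16). Strain background, transgene, doxycycline and injection cannot be told apart between these controls.

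Of 21 other proximal tubule carriers and pumps, 14 fell after ADR in WT mice and none rose, beside 12.0% of all genes called lower. The 21 had a median of -0.93. Slc22a27, an organic anion transporter of the same family, had a log2 fold change of -3.02 (adjusted p = 0.0024), the carnitine carrier Slc22a5 one of -0.97 (adjusted p = 0.0043) and the efflux pump Abcg2 one of -0.84 (adjusted p = 0.0059). In KO mice 1 of the 21 fell (Slc22a27, -2.20, adjusted p = 0.046), and none passed in i-TERTci mice, where all 21 had negative fold changes and 7 an unadjusted p under 0.05. Of 11 partner proteins and pumps that carriers depend on, 3 fell after ADR in WT mice: the scaffold Pdzk1 (-1.11, adjusted p = 0.011), Slc3a2, the heavy chain that pairs with Slc7a7 and Slc7a8 (-0.50, adjusted p = 0.039), and the carbonic anhydrase Car2 (-0.36, adjusted p = 0.047). None of the 11 passed in i-TERTci or in KO mice, with 4 at an unadjusted p under 0.05 in each. Of 22 proximal tubule markers that are not carriers, 11 fell and none rose after ADR in WT mice, with a median of -0.94, among them the endocytic receptors Cubn (-1.23, adjusted p = 0.0092) and Lrp2 (-1.59, adjusted p = 0.0096). None of the 22 passed in KO or i-TERTci mice, although 12 and 5 had an unadjusted p under 0.05. An unadjusted p under 0.05 was found for 24.1% of all genes in KO and 22.4% in i-TERTci mice. The 5 of 22 in i-TERTci mice is near that share. Called in either direction were 5.26% of all genes in KO and 0.00564% in i-TERTci mice.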

How the data were processed

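RNA was extracted from whole kidneys of 20 mice, 1 library each, and sequenced as paired-end reads. Per the labels, the authors checked reads with FastQC, trimmed them with Trimmomatic and aligned them with STAR to mm10; the counting tool, its annotation and its use of strand are not given in the sources used here. The deposited values are raw read counts per gene, 39323498 to 48399322 per library. Gene symbols came from GENCODE M21 and matched 55144 of 55471 identifiers. The 42 carriers and all marker lists were chosen with earlier results of these data known.

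Counts were fitted with the quasi-likelihood test of edgeR 4.0.16 (R 4.3.3, limma 3.58.1; filterByExpr, TMM factors from 0.866 to 1.24, robust). The i-TERTci experiment was fitted with 7 libraries, the ADR experiment with 12 and the comparisons across experiments with 19, all without KO ADR replicate 2. Genes were called at a Benjamini-Hochberg adjusted p under 0.05 over all genes tested, two-sided. CPM are TMM-normalized, RPKM divide by exon union length, and intervals are 95%. Alternatives were DESeq2 1.42.0, RLE (median-ratio) factors, other low-count filters (none, or a mean of at least 1 CPM), edgeR's newer quasi-likelihood method, the compared groups alone, KO ADR replicate 2 kept, a replicate block, and each library left out in turn. The fits were tested on simulated counts. Every carrier could be named; values in every library are given for up to 3 carriers per substrate group with the smallest p in the i-TERTci and WT ADR comparisons and for called exceptions, and further carriers were chosen after their values were seen. From other lists, up to 3 genes with the smallest p are named. A further gene and a further promoter element were analysed and are not reported here. The promoter search used RefSeq sequences (GRCm38.p6), and no 2 libraries held identical counts. The p-values rest on the spread between single kidneys, and the floor of 3 counts covers counting error only.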

Additional observations from a re-analysis of the deposited data

Results flagged for a closer look

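Within the groups of 4 libraries, 7 of 83 tests of a carrier found 1 library far from the other 3, where chance flags about 1 in 20. In WT saline mice, replicate 1 was high for Slc22a13 (204 CPM, others 150.2 to 157) and Slc47a1 (562 CPM, others 464 to 480), and replicate 4 was high for Slc6a19 (328 CPM, others 250.2 to 252). In actin-rtTA+ mice, replicate 4 was high for Slco4c1 (9.10 CPM, others 5.44 to 6.04), replicate 3 low for Slc7a13 (0.750 CPM, others 1.63 to 1.78), replicate 2 low for Slc17a1 (226 CPM, others 288 to 293) and replicate 1 low for Slc23a1 (409.9 CPM, others 462 to 470.3).

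In KO ADR replicate 2, which enters no group value, 5 carriers were above all the other 12 libraries of the ADR experiment. The glutamine carrier Slc38a3 reached 2559 CPM (others 35.6 to 121) and the glucose carrier Slc2a2 367 CPM (others 89.5 to 200.2). Slc2a9 reached 50.6 CPM (others 14.1 to 23.0), Slc22a30 31.5 CPM (others 0.436 to 8.34) and Slco1a1 3.77 CPM (others 0 to 0.302). The library also held the hepatocyte markers given above.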

How the results depend on the processing

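Counts of called carriers moved as follows, with the share or number of all genes called under the same setting in brackets, except for the ranges on leaving out single libraries. For i-TERTci, 0 became 6 with DESeq2 (6.59%) and 4 with the libraries of both experiments (10.9%), and leaving out single libraries gave 0 to 24. For ADR in WT mice, 29 became 0 with KO ADR replicate 2 kept (4.82%), and leaving out single libraries gave 5 to 39. For ADR in KO mice, 1 became 3 without a low-count filter (3.24%), 2 with a mean of at least 1 CPM (6.27%), 10 with DESeq2 (6.48%), 2 with the newer quasi-likelihood method (5.74%), 12 with the compared groups alone (9.53%) and 0 with replicate 2 kept (1.59%), and leaving out single libraries gave 0 to 2. Between genotypes after ADR, 0 became 1 without a low-count filter (0.124%) and 1 with DESeq2 (0.383%), with 0 to 14 on leaving out single libraries; the corresponding ranges were 0 to 8 for the difference of ADR effects and 0 to 1 between control groups. The cause of these moves was not tested. Correlations of same-numbered deviations ran from -0.47 to 0.49, with 0.49 and 0.36 for replicates 1 and 3 between WT ADR and KO ADR. With so few libraries they do not settle whether replicate numbers pair the samples. With the replicate number as a block, 0 carriers were called for i-TERTci and 28 (3612 of 19023 genes) for ADR in WT mice. In KO mice 1 was called for ADR (735 of 19023 genes), and 0 elsewhere.

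The sign turned in 19 values for single carriers. For ADR in KO mice, Slc5a8 turned to -0.0199 with the replicate block and -0.48 with replicate 2 kept, and ranged from -0.0610 to 0.40 on leaving out single libraries. There Slc9a3 turned to -0.0042 with RLE factors, -0.00245 without a filter, -0.0027 with DESeq2, -0.0073 with the compared groups alone, -0.0739 with the replicate block and -0.58 with replicate 2 kept, and ranged from -0.16 to 0.14 on leaving out single libraries, where Slc5a12 ranged from -1.20 to 0.33. With replicate 2 kept, Slc2a2 turned to 1.63, Slc26a1 to 0.44, Slc17a1 between genotypes after ADR to -0.0408 and Slc9a3 in the difference of ADR effects to -0.0371. Of the other values, 123 fell short of the threshold only under an alternative, 58 passed it only there, and 1145 kept their side. Depth limited few carriers: Slco1a1 and Slc7a13 were under 2 CPM in every library kept apart from Slco1a1 in i-TERTci, and KO ADR rests on 2 libraries.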
